A study of Mus musculus with 9 samples.

Results

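The 10 genes described here take part in calcium release and reuptake in muscle fibres, and they were followed through the 9 arrays of a mouse cochlea study: Cacna1s, Ryr1, Jph1, Trdn, Casq1, Casq2, Atp2a1, Atp2a2, Sln and Pln. They were chosen as the probe sets whose platform annotation named exactly 1 of these 10 symbols, which gave 25 of the 45037 probe sets and 10 of the 18193 genes named on the array. RNA came from whole cochleae of male C57BL/6 mice: 4-month-old controls (YC), 15-month-old controls (MC) and 15-month-old mice on calorie restriction (CR). Controls ate 84 kcal per week and restricted mice 62 kcal per week from 2 months of age, and all mice were housed singly. Each group held 3 samples, each a pool of 4 cochleae from 2 mice, so that p-values measure the spread between a few small pools. A filter then left out the dimmest 40% of probe sets by mean signal. Of the 25 member probe sets 20 passed it, and each of the 10 genes kept at least 1.

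In skeletal muscle, a voltage sensor in the surface membrane opens a calcium release channel of the sarcoplasmic reticulum, the calcium store of the fibre. Calcium that leaves the store starts contraction, and a calcium pump returns it so that the fibre relaxes. Inside the store calsequestrin binds calcium, and small membrane peptides slow the pump. Fast skeletal fibres, slow fibres and heart use different genes for several of these steps, and the slow or cardiac forms of some of them also serve cells outside muscle.

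The cochlear marker list had a probe set for 15 of 16 genes, and 11 of them passed the signal filter, among them Otos, Coch and Gjb6. Tecta, Kcne1, Slc26a5 and Pou4f3 did not. Hair cell genes lay on both sides of the filter, with Myo7a above it and Slc26a5 and Pou4f3 below, and so did tectorial membrane genes, with Tectb and Otog above it and Tecta below. All 22 skeletal muscle markers passed the filter. In bulk samples, fewer muscle fibres and less of a transcript per fibre cannot be told apart. The array median of the deposited signal lay between 526.8 and 626.6 in the 3 CR arrays and YC 1, and between 842.4 and 1103.9 in the 3 MC arrays, YC 2 and YC 3, so that it moved with the CR and MC groups. Values are therefore quoted as deposited for each array, while log2 changes and their standard errors (SE) come from quantile normalized log2(signal + 16) values in a limma fit of all 27022 filtered probe sets. A change was called when its Benjamini-Hochberg adjusted p over those probe sets was under 0.05.

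In restricted mice the fast-fibre pump and the skeletal calsequestrin were lower than in age-matched controls. Their slow or cardiac counterparts did not pass the test. Against MC, Casq1 fell 5.31-fold and Atp2a1 fell 3.87-fold, and these were the only members called (2 of 10 genes, 2 of 20 probe sets). Neither was called with arrays centred on their median, where the log2 changes were -1.54 for Casq1 and -1.28 for Atp2a1, nor with the deposited scaling, without a variance trend, with a replicate block, with array class as a term, or without any of 5 single arrays named further on. Of all probe sets 0.0925% were called in either direction and 0.0888% were called lower. Of the 10 genes, 8 were lower in CR than in MC and 2 were higher, with a median log2 change of -1.07 beside 0.08 over all probe sets. With arrays centred on their median 6 were lower, and the median of all probe sets was then 0.58. In 5 of the 10 genes (Cacna1s, Ryr1, Trdn, Casq1, Atp2a1) every CR array lay below every MC array after normalization, against 18.2% of all probe sets. Between YC and MC no member was called.

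**Figure D1:**
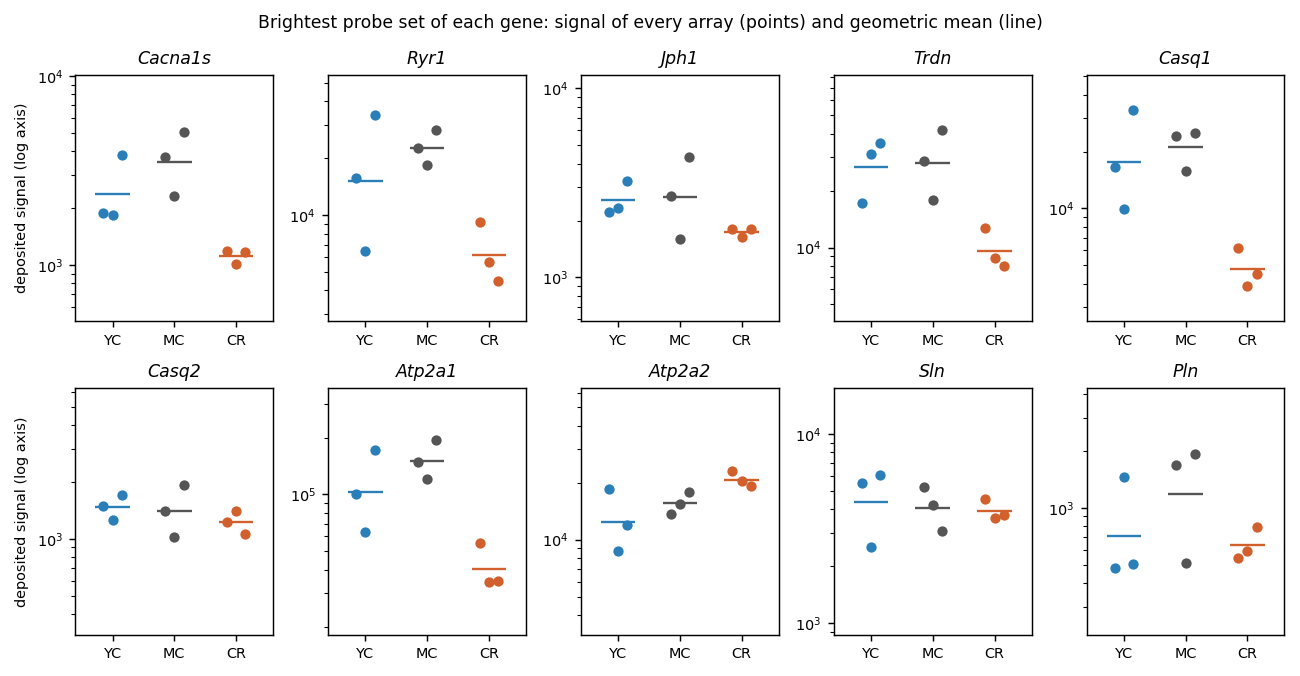
Deposited signal (log axis) of the brightest probe set of each gene in the YC, MC and CR arrays, with a point for each of the 3 arrays of a group and a line at the geometric mean. The CR arrays sit below all others for Casq1 (at most 6202.3) and Atp2a1 (at most 55174.2), while the groups overlap for Casq2, Sln and Pln and the CR arrays are the highest for Atp2a2.

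Calcium release starts with Cacna1s, the pore-forming subunit of the voltage-sensing channel of skeletal muscle. Its deposited signal was 1881.7, 1842.2 and 3819.3 in YC replicates 1 to 3, 3729.4, 2318.2 and 5049.4 in MC, and 1189.3, 1013.6 and 1172.5 in CR. The 3 CR arrays were the lowest of the 9 and lay close together, whereas YC and MC overlapped. The log2 change from MC to CR was -1.56 ± 0.41 (SE, n = 3 per group, limma adjusted p = 0.156), and from YC to CR it was -0.83 ± 0.41 (limma adjusted p = 0.465). Neither passed the threshold.

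Ryr1 encodes the release channel of the skeletal muscle store, and 2 probe sets measured it. On the brighter probe set the signal was 15743, 6436.5 and 33938.2 in YC, 22789.6, 18514.1 and 28168.9 in MC, and 9230.8, 5644.5 and 4487.6 in CR. All CR arrays lay below all MC arrays, and YC 2 fell within the CR range as deposited. The change from MC to CR was -2.18 ± 0.42 on the log2 scale (limma adjusted p = 0.0938), between those of Casq1 and Atp2a1 but with a wider error. The dimmer probe set gave -0.72 ± 0.63 (limma adjusted p = 0.534), with overlapping groups, so the probe sets had the same sign and differed in size.

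Jph1 encodes junctophilin, which holds the surface membrane and the store together. Its brighter probe set read 2208.9, 2343.2 and 3237.5 in YC, 2693.9, 1589.7 and 4362.7 in MC, and 1797.7, 1633.8 and 1804.9 in CR. The MC arrays spanned the whole range of the others, and the CR arrays were tight. The log2 change from MC to CR was -0.59 ± 0.38 (limma adjusted p = 0.415), and with arrays centred on their median it was 0.017. The dimmer probe set gave -0.22 ± 0.70.

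Trdn encodes triadin, the protein that links the release channel to calsequestrin, and 4 of its 6 probe sets passed the filter. The brightest read 17161.2, 31312.4 and 35664.3 in YC, 28837.1, 17854.9 and 41935.7 in MC, and 12753.3, 8764.9 and 7966.8 in CR. All CR arrays lay below all arrays of both control groups on this probe set. Its change from MC to CR was -1.84 ± 0.44 (limma adjusted p = 0.146). The other 3 filtered probe sets gave -1.31, -1.36 and -0.93, and after normalization CR and MC did not overlap on any of the 4. As deposited, the probe set with the change of -1.31 did overlap, with CR 1 at 6080.4 above MC 2 at 5345.6. That probe set carries the platform's mark for sequence shared with other transcripts.

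Casq1 and Casq2 encode the calsequestrins, which bind calcium inside the store. Casq1 is the skeletal muscle form, and Casq2 is the form of heart and is also made in slow fibres. Casq1 read 16654.2, 9900.6 and 33357.7 in YC, 24164.7, 15866.1 and 25073.7 in MC, and 6202.3, 3864.9 and 4482.6 in CR. Every CR array was below every control array, and YC had the widest spread. The mean normalized log2 level was 14.16 ± 0.70 (SD) in YC, 14.50 ± 0.42 in MC and 12.09 ± 0.28 in CR. Casq1 fell from MC to CR by 2.41 on the log2 scale (SE 0.34, n = 3 per group, limma adjusted p = 0.0441). The difference between CR and YC was -2.08 ± 0.34 (limma adjusted p = 0.16), without overlap and not called.

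Casq2 in the same arrays read 1489.2, 1262.5 and 1702.6 in YC, 1395.8, 1019.6 and 1918.6 in MC, and 1229.9, 1395.6 and 1063 in CR. No group stood apart from another. The log2 change from MC to CR was 0.10 ± 0.38 (limma adjusted p = 0.891), with a 95% interval from -0.72 to 0.93. As deposited, without quantile normalization, it was -0.19. Casq2 had a single probe set, which carries the platform's mark for several transcripts.

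Atp2a1 and Atp2a2 encode calcium pumps of the store. Atp2a1 is the pump of fast fibres, and Atp2a2 is the pump of heart and slow fibres and, in another splice form, of most other cells. Atp2a1 read 101035, 63499.5 and 172110 in YC, 149089, 120138 and 193180 in MC, and 55174.2, 34375.1 and 34879.8 in CR. The highest CR array was below the lowest control array, YC 2. The mean normalized log2 level was 16.65 ± 0.46 (SD) in YC, 17.08 ± 0.20 in MC and 15.12 ± 0.35 in CR. The change from MC to CR was -1.95 ± 0.25 (SE, n = 3 per group, limma adjusted p = 0.0357), and from YC to CR -1.53 ± 0.25 (limma adjusted p = 0.16).

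Atp2a2 had 6 probe sets, of which 5 passed the filter. The brightest read 18525.1, 8686 and 11892.3 in YC, 13653.7, 15425.1 and 17847 in MC, and 22950.5, 20431 and 19184.5 in CR. As deposited all CR arrays were above all controls, and after normalization CR and MC overlapped. The log2 change from MC to CR was 0.06 ± 0.17 (limma adjusted p = 0.851, 95% interval -0.31 to 0.44), with the deposited scaling it was 0.42, and with arrays centred on their median 1.04, none called. Over the 5 probe sets the changes ran from -0.32 to 0.84, 4 of them positive, and none was called. Against YC the brightest probe set was higher in CR by 0.45 ± 0.17 without overlap, again not called (limma adjusted p = 0.457).

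The windows before the annotated start of the 2 called genes and of Casq2 are printed to set a pair of isoforms with different changes side by side. They come from RefSeq on build GRCm38.p6, whose promoter table matched 6 of the 10 members by symbol. Each holds the 250 bases up to the start: Atp2a1 at chr7:126463074-126463323 on the minus strand, Casq1 at chr1:172219896-172220145 on the minus strand, and Casq2 at chr3:102086165-102086414 on the plus strand. Capitals mark the E-box CANNTG, the motif of MyoD and related muscle factors, and in Casq2 also a match to the MEF2 motif.
Atp2a1: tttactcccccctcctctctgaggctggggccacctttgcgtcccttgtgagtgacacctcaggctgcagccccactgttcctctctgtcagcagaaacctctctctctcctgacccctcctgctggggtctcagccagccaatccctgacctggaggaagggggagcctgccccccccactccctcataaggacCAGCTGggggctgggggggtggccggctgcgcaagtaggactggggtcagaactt
Casq1: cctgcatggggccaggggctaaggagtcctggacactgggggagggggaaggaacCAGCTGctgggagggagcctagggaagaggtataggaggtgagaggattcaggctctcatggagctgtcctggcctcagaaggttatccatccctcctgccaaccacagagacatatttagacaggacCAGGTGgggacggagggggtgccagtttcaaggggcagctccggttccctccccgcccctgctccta
Casq2: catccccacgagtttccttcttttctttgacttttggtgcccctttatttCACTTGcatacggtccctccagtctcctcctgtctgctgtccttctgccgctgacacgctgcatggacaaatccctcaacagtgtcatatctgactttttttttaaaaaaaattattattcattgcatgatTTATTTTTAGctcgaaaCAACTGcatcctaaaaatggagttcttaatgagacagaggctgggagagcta
Both strands were searched, and no marked motif overlapped another. The E-box occurred 1 time before Atp2a1, 2 times before Casq1 and 2 times before Casq2, and at least 1 E-box lies in 66.2% of the 32851 windows of this length in the table. Casq2 had 1 MEF2 match, as do 2.92% of windows, and none of the 3 held the MCAT motif CATTCC (12.6% of windows). Among the other members in the table, the Ryr1 window had no E-box, Pln had 1, and Cacna1s had 2 with 1 MCAT match. These are matches of letters and no measure of binding.

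Sln and Pln encode sarcolipin and phospholamban, small membrane peptides that inhibit the pump. Sln read 5524.9, 2512.8 and 6041.9 in YC, 5264, 4205.2 and 3059.7 in MC, and 4501.5, 3602.3 and 3747.2 in CR. The groups overlapped throughout, and the log2 change from MC to CR was -0.24 ± 0.35 (limma adjusted p = 0.717). The interval from -1.01 to 0.53 lay above the fitted changes of Casq1, Ryr1, Atp2a1, Trdn and Cacna1s. A direction for Sln was not settled, since centring arrays on their median gave 0.57. The other Sln probe set was below the filter and was not tested. It read 198.4, 164.1 and 178.6 in MC and 49, 111.5 and 32 in CR. These were lower in CR without overlap as deposited, and overlapped after normalization.

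Pln had 3 probe sets, 1 of which fell below the filter and was not tested. That dim probe set read 313.5, 244.7 and 409.6 in MC and 81.8, 79.2 and 61 in CR, lower in CR without overlap. The brightest read 479.4, 1460 and 501.3 in YC, 1691.9, 513.4 and 1915.1 in MC, and 545.2, 588.4 and 790.5 in CR. YC 2, MC 1 and MC 3 stood well above the others, and no group stood apart. The log2 change from MC to CR was -0.42 ± 0.57 (limma adjusted p = 0.692), and the next probe set gave 0.15 ± 0.44.

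**Figure D2:**
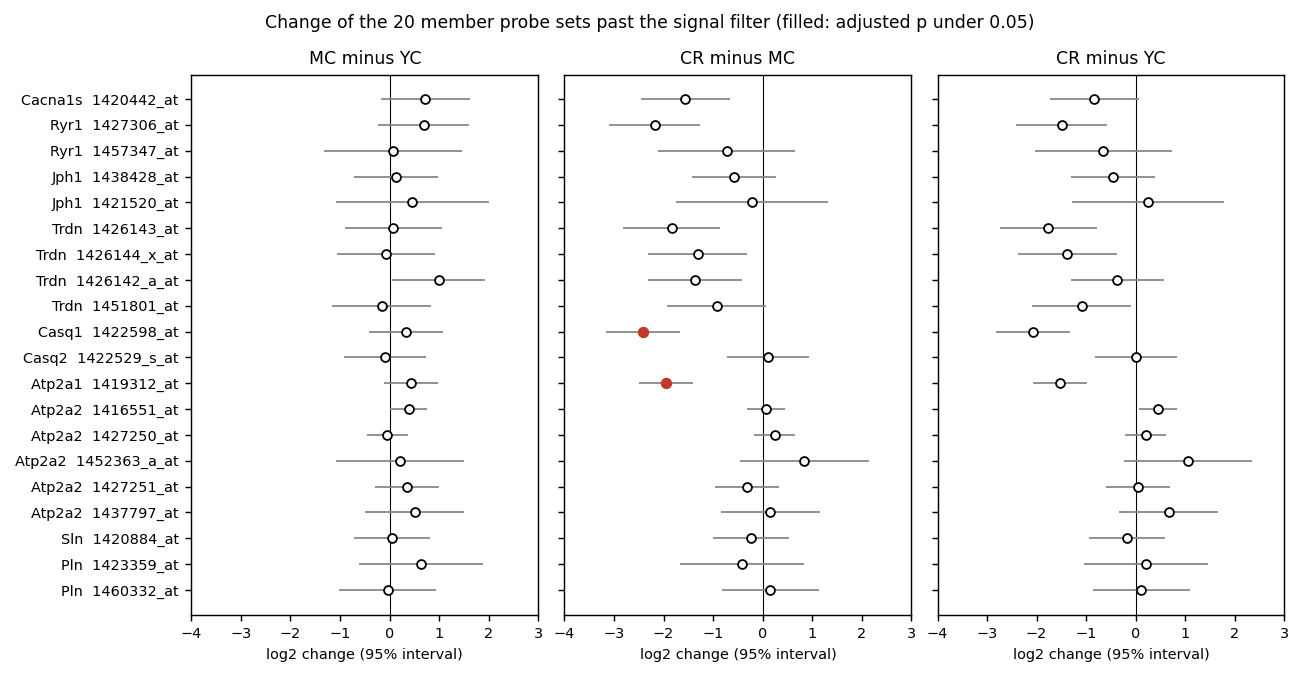
Log2 change (x axis) of the 20 filtered member probe sets with 95% intervals from limma, in the age comparison (MC against YC) and for CR against each control group, ordered from release to reuptake and its inhibitors. Filled points passed an adjusted p of 0.05, which only Casq1 (-2.41) and Atp2a1 (-1.95) did, both in CR minus MC.

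How far the fast or skeletal isoform moved against its slow or cardiac partner was measured within each array, as the log2 difference between the pair. The pairs were Atp2a1 with Atp2a2, Casq1 with Casq2, and Ryr1 with Ryr2 (the cardiac release channel). Cacna1s was paired with Cacna1c (the cardiac calcium channel) and Jph1 with Jph2. Jph2 is a junctophilin of both heart and skeletal muscle, so that pair does not set a skeletal against a cardiac form. From MC to CR the pump pair moved by -2.02 log2 units (95% interval -2.54 to -1.50) and the calsequestrin pair by -2.51 (-3.21 to -1.82). The release channel pair moved by -2.84 (-3.97 to -1.71) and the calcium channel pair by -1.90 (-3.81 to 0.01). In each of these 4 pairs the CR and MC arrays did not overlap. How often other gene pairs separate in this way was not measured. Of all single probe sets, 18.2% had CR below MC without overlap. Cacna1c was dim, at percentile 44 of mean signal where the filter cut at 40. It read 431, 908.1 and 700.6 in MC, and 438.4, 399.3 and 798.1 in CR. Intervals come from the pooled SD of the arrays.

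The exact two-sided permutation test gave p = 0.1 for each of the 4 pairs, the smallest value that 3 arrays against 3 allow. Adjusted over the 15 tests (5 pairs, 3 comparisons) the exact permutation p was 0.25, so none could pass. The junctophilin pair moved by 0.45 (-0.50 to 1.39), and Jph2 itself changed by -1.03 beside -0.59 for Jph1. From YC to CR the pump pair moved by -1.98 and the calsequestrin pair by -2.09, both without overlap. Of all single probe sets, 9.1% had CR below YC without overlap. The release channel pair (-1.74) and the calcium channel pair (-1.28) overlapped, and YC 2 lay at -1.60 and -2.28 relative to the YC mean. From YC to MC the 5 differences ran from 0.04 to 1.10, and all overlapped.

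**Figure D3:**
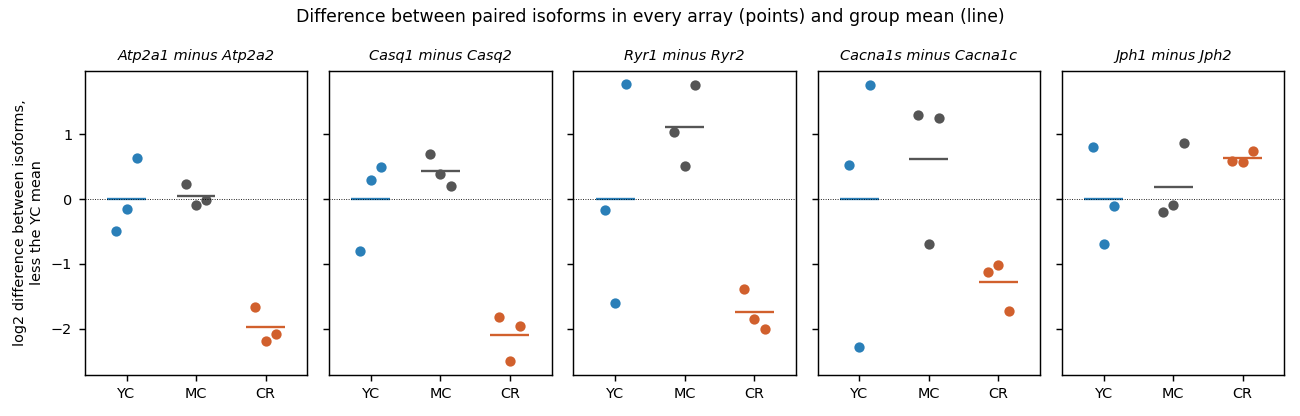
Log2 difference between paired isoforms in each array (points), less the mean of the 3 YC arrays, with the group mean as a line. CR arrays lie between -2.49 and -1.66 for the pump and calsequestrin pairs, below all YC and MC arrays, and among the controls for the junctophilin pair.

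Across the 9 arrays the members' profiles lay at different distances from each other. The root mean square distance between profiles, each centred on its own mean, was 0.29 log2 units between Atp2a1 and Casq1, 0.31 between Atp2a1 and Ryr1 and 0.34 between Casq1 and Ryr1. It was 0.99 between the pumps and 1.16 between the calsequestrins. Atp2a2 and Casq2 were 0.36 apart, and Casq2 and Jph1 0.40. Profiles with little variation lie close together whatever their shape. Among 13701 other genes, those nearest to Atp2a1 were Tmod4 (0.12), the muscle creatine kinase gene Ckm (0.14), Mylpf (0.17), the skeletal actin gene Acta1 (0.17) and the fast troponin gene Tnni2 (0.17). The median gene was 1.01 from Atp2a1. Nearest to Casq1 were Tcap (0.20), Tnni2 (0.21), Pgam2 (0.22), Tnnt3 (0.23) and Rpl3l (0.25).

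The profiles of Atp2a2 and Sln had other neighbours. Nearest to Atp2a2 were Marchf6 (0.11), Rusf1 (0.12), Zadh2 (0.14), Pdgfrb (0.14) and Slc24a3 (0.14), where the median gene was 0.52 away. Nearest to Sln were Nrd1 (0.14), Dpt (0.14), Chchd3 (0.14), Nudt3 (0.15) and Ifitm2 (0.15), with a median of 0.60. After quantile normalization these profiles have an SD of 0.25 (Atp2a2) and 0.43 (Sln) over the arrays, against 0.94 for Atp2a1 and 1.21 for Casq1, so that nearness to them is nearness to little variation.

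The wider set of muscle calcium handling genes was a list of 40, of which 35 had a probe set and 32 passed the filter. None was called in any comparison in limma, and at an unadjusted p under 0.05 there were 2 (YC to MC), 10 (MC to CR) and 10 (YC to CR). Over all 27022 probe sets these numbers were 915, 5007 and 2910. From MC to CR 22 of 32 were lower and 10 higher, with a median log2 change of -0.47, and 15 were lower without overlap (18.2% of all probe sets). With arrays centred on their median 17 were lower and 15 higher (median -0.03), and with the deposited scaling 23 were lower (median -0.65). The 4 with the smallest p were Srl, a calcium-binding protein of the store (-2.08, limma adjusted p = 0.0849), Jsrp1, a protein of the junction between membrane and store (-1.71, adjusted p = 0.0954), Pvalb, the calcium buffer of fast fibres (-1.49, adjusted p = 0.101), and Tmem38a, a counter-ion channel of the store (-1.35, adjusted p = 0.106). Ryr2 had a value of 0.66, Cacna1c of 0.34 and the third pump gene Atp2a3 of 0.05, none called.

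Skeletal muscle markers outside these genes moved in the same direction as Atp2a1 and Casq1. All 22 were lower in CR than in MC, 8 of them called, with a median log2 change of -2.04 (-1.37 with arrays centred on their median, again 22 lower). Their summed deposited signal ran from 665517 to 1484574 in YC, from 961618 to 1516956 in MC and from 290678 to 444439 in CR. The slow-fibre markers had values of -3.96 (Myh7), -3.79 (Myl2), -2.24 (Tnnt1), -2.06 (Tnni1), -1.57 (Tnnc1) and -0.72 (Myl3), none called. CR and MC were apart for Myh7 and Myl2 and overlapped for Tnnt1, Tnni1, Tnnc1 and Myl3. For each of these markers MC 3 was the highest MC array. Myh7 read 996, 1621.9 and 5842.8 in MC, and Myl2 read 2131.1, 2095 and 7375.2. In CR Myh7 read 35.6, 47.6 and 296.2, and Myl2 read 242.7, 53.5 and 329.7. The mean normalized log2 level in CR was 7.07 (Myh7), 7.93 (Myl2), 8.01 (Tnnt1) and 8.18 (Tnni1). These levels lay below the dimmer Jph1 probe set, which passed the filter with a mean of 8.95 over all arrays. Tnnc1 (9.53) and Myl3 (9.44) lay above it in CR. The sizes of the changes of Myh7, Myl2, Tnnt1 and Tnni1 thus rest on dim CR signals. The values of Atp2a2, Casq2, Sln and Pln ran from -0.42 to 0.10, and with arrays centred on their median from -0.27 (Pln) to 1.04 (Atp2a2). The contribution of muscle amount to the members' values was not tested.

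Lists of other tissues had medians nearer to 0 or above it. The cardiac list had 5 of 12 genes past the filter, with a median of -0.32. Their values were -1.98 for Actc1, without overlap, -0.58 for Myl4, -0.32 for Nkx2-5, 0.04 for Nppb and 1.38 for Mybpc3, also without overlap. The other 7, among them Myh6, Myl7, Nppa and Tnni3, were below the filter. Smooth muscle genes had a median of -0.09 (7 of 9 past the filter), which was 0.79 with arrays centred on their median. Among them Des (-2.05) and Synpo2 (-1.77) were lower without overlap, and the other 5 ran from -0.22 (Smtn) to 0.51 (Actg2). Cochlear genes had a median of 0.98, with 9 of 11 higher and summed signals from 71469 to 81122 in MC and from 147492 to 194157 in CR. In YC the cochlear sums ran from 57179 to 124405, with the middle array at 59139. Brain genes had a median of 1.25, with 13 of 14 higher and sums from 32738 to 37299 in MC and from 67873 to 131260 in CR. In YC the brain sums ran from 28867 to 57302, with the middle array at 37037. None of these 4 lists had a gene called in limma, no marker was listed at 0, and their part in the members' values was not tested. An unadjusted limma p under 0.05 occurred in 1 cardiac, 2 smooth muscle, 6 cochlear and 11 brain genes. Of all 27022 probe sets 5007 had one.

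**Figure D4:**
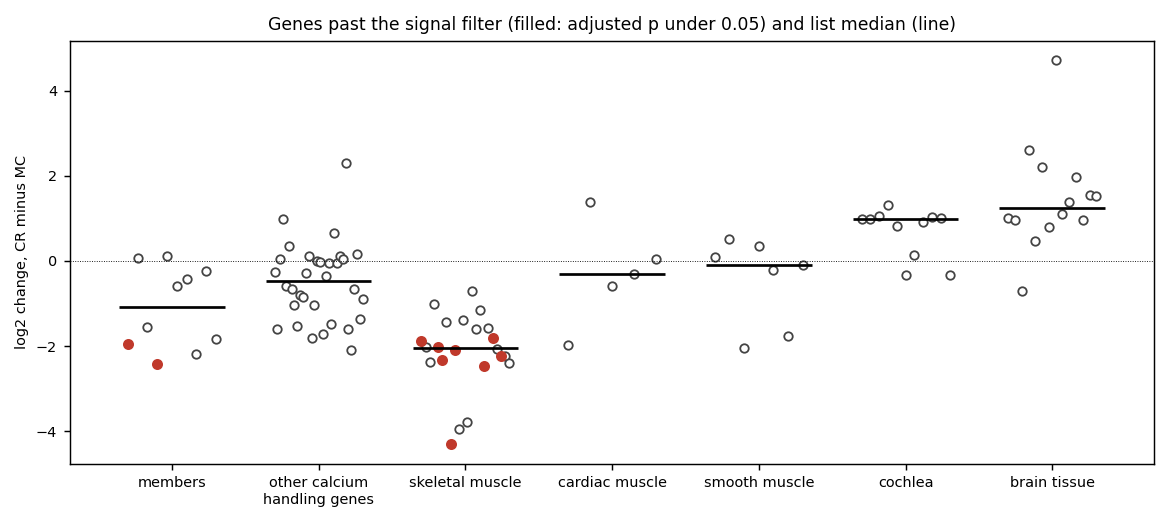
Log2 change from MC to CR (y axis) of each filtered gene by list, with the list median as a line and filled points for an adjusted p under 0.05. The skeletal muscle median is -2.04, the members' is -1.07, and the cochlear (0.98) and brain (1.25) medians lie above 0.

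No member passed the test with age. From YC to MC 0 of 10 members and 0 of 27022 probe sets (0%) were called in limma, where 915 probe sets and 1 member (Atp2a2) had an unadjusted p under 0.05. Of the members 9 were higher in MC, with a median log2 change of 0.36 beside 0.02 over all probe sets, and with arrays centred on their median 6 were higher. The largest values were 0.72 ± 0.41 for Cacna1s, 0.69 ± 0.42 for Ryr1 and 0.63 ± 0.57 for Pln. Leaving out 1 array moved Cacna1s between 0.42 (without MC 3) and 1.11 (without YC 3), Ryr1 between 0.31 (without YC 2) and 1.22 (without YC 3), and Pln between 0.26 (without MC 3) and 1.27 (without MC 2). After normalization only Atp2a2 separated the groups (0.39 ± 0.17), where 2.97% of all probe sets did so upward. As deposited Atp2a2 overlapped, with YC 1 above all MC arrays, and 0 members separated them. YC 3 exceeded at least 2 of the 3 MC arrays for Atp2a1, Casq1 and Ryr1.

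Of the wider calcium list, 22 of 32 genes were higher in MC than in YC (median 0.15), and 15 of 32 with arrays centred on their median. Those with the smallest p were Slc8a3, a sodium-calcium exchanger (-2.23), Jsrp1 (0.76), Stac3, an adaptor of the voltage sensor (0.71), and Ryr3 (0.70), each with a limma adjusted p of 1. Slc8a3 read 2031, 1866 and 2119 in YC and 326.7, 107.9 and 2381.6 in MC. Its value (SE 0.88) thus rested on MC 1 and MC 2, and MC 3 lay above every YC array.

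Restricted mice were also set against the young controls, a comparison that shares the CR arrays with the one above. Here 0 of 10 members and 0 of 27022 probe sets (0%) were called in limma, with 2910 probe sets and 5 members at an unadjusted p under 0.05. Of the members 7 were lower in CR, with a median of -0.65 (6 with arrays centred on their median). In 6 of the 10 (Cacna1s, Ryr1, Jph1, Trdn, Casq1, Atp2a1) every CR array lay below every YC array after normalization, against 9.1% of all probe sets. Trdn had a change of -1.76 ± 0.44 and Ryr1 of -1.49 ± 0.42. In the wider list Srl (-1.81), Pvalb (-1.24), Hrc (-1.70) and Asph (-1.53) had the smallest p, none called, and 21 of 32 were lower (15 of 32 with arrays centred on their median). Without YC 1, Atp2a1, Casq1 and Trdn were called (limma adjusted p = 0.0348 for each).

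The calls in CR against MC rested on few arrays. Neither Atp2a1 nor Casq1 was called without MC 1, MC 3, CR 1, CR 2 or CR 3, with limma adjusted p from 0.0609 to 0.246 and log2 changes from -2.56 to -1.85. Without YC 2, which belongs to neither group of the comparison but enters the fit, 5 members were called: Atp2a1, Casq1, Ryr1, Trdn and Cacna1s. With array class (low or high median signal) as a term the changes were -1.44 for Atp2a1, -1.66 for Casq1 and -0.23 for Trdn, none called (limma adjusted p = 0.9996). Among the low-median arrays alone, the difference between CR and YC 1 was -1.18 log2 units for Atp2a1 and -1.58 for Casq1, and in the high-median arrays that between MC and YC 2 and 3 was 0.26 and 0.09. No class held both CR and MC arrays, so class and group cannot be told apart in that comparison.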

How the data were processed

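Cochlear RNA of 3 groups was measured on 9 Affymetrix 1-colour arrays. The authors deposited linear signal intensity values per probe set. The submitters' processing notes name GCOS 1.3, while for the signal algorithm, scaling target, detection calls and filters there is no entry in the labels. With 9 arrays the precision is set by their number. The deposited arrays share a 2% trimmed mean (1493.6 to 1496.4), as arrays scaled to a common mean would, while their medians differed 2.10-fold. Quantile normalization was applied after taking log2(signal + 16), and changes of dim probe sets are understated. The dimmest 40% by mean signal were left out, which left 27022 probe sets. Group means of all 9 arrays were fitted across all probe sets in limma 3.58.1 under R 4.3.3 (eBayes with a variance trend, Benjamini-Hochberg adjustment). Each gene's value is that of its brightest probe set with 1 symbol. Probe names come from the platform annotation, with symbols updated by gene ID from RefSeq GRCm38.p6, and no gene coordinates are given because the array's build is not stated. The fit was tested on simulated data.

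The members, lists and tests were chosen with earlier results of these data known. Of the wider calcium list the genes past the threshold and the 4 with the smallest p per comparison are named. For likeness the 5 nearest genes are named, and slow-fibre markers were picked from their list after values were seen, as were the other list genes named. Alternatives were the pseudocount, filter, normalization, variance trend, array weights, samples in the fit, replicate block, array class, probe set rule and each array left out.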

Additional observations from a re-analysis of the deposited data

How the results depend on the processing

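The precision is limited by 3 pools per group. The 2 calls from MC to CR (Atp2a1, Casq1) held with a pseudocount of 1 or 64, without a filter or with one at the 60th percentile, and with the mean of probe sets. Each of these 2 genes has 1 probe set. The filter and the mean of probe sets could thus alter their error and adjusted p but not their log2 change. The number of called members was 0 with median centring, 0 with the deposited scaling, 0 without a variance trend, 0 with array class as a term and 0 with the replicate block (adjusted p = 0.0784 for both genes). It was 5 with array weights and 5 with only the compared groups. Leaving out each array gave 0 to 5 called members from MC to CR and 0 to 3 from YC to CR. Over all probe sets the 25 calls from MC to CR became 0 with median centring, the replicate block, array class or no variance trend, 7 with the deposited scaling, 3397 with array weights, 1846 with only the compared groups, and 0 to 987 without 1 array. The cause of these changes was not tested. Deviations of same-numbered arrays correlated at -0.29 to 0.27, with 2 of 9 pairs over 0.1. Differently numbered arrays of different groups ran from -0.24 to 0.28. With 3 arrays per group this cannot decide whether the numbers pair the arrays, and the labels do not say.

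Directions turned for uncalled members. With median centring, which moved the median of all probe sets from 0.08 to 0.58 (MC to CR), the values were -0.32 for Sln, -0.16 for Trdn and -0.16 for Jph1 with age, 0.57 for Sln and 0.017 for Jph1 from MC to CR, and 0.25 for Sln from YC to CR. With the deposited scaling they were -0.10 for Sln with age, -0.19 for Casq2 from MC to CR, and -0.27 for Casq2 and -0.16 for Pln from YC to CR. With array weights they were -0.012 for Jph1 with age and -0.11 for Casq2 from YC to CR. With array class as a term, and in the same comparison within 1 class, age gave 0.056 for Casq2 and -0.46 for Trdn, and YC to CR gave -0.28 for Casq2. That term gave -0.16 for Atp2a2 and -0.34 for Casq2 from MC to CR.

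Leaving out each array gave ranges that crossed 0. With age they were -0.34 to 0.34 for Sln, -0.39 to 0.13 for Casq2, -0.46 to 0.48 for Trdn and -0.29 to 0.53 for Jph1. From MC to CR they were -0.0081 to 0.18 for Atp2a2 and -0.12 to 0.35 for Casq2. From YC to CR they were -0.29 to 0.16 for Casq2, -0.58 to 0.10 for Sln and -0.11 to 0.53 for Pln. For the isoform differences with age they were -0.20 to 0.36 for the pumps, -0.53 to 1.495 for the calcium channels and -0.16 to 0.59 for the junctophilins. Within 1 array class the pump difference with age was -0.20, and the junctophilin difference from YC to CR was -0.16. Atp2a1, Casq1, Ryr1, Trdn and Cacna1s were lower in CR than in MC under all 21 alternatives run. Several of these could not move the estimate: the filter, variance trend, compared groups alone, replicate block and leaving out a YC array. For Atp2a1, Casq1 and Cacna1s, with 1 probe set each, the mean of probe sets could not move it either. In those the sign was fixed in advance.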
